A study of Mus musculus with 4 samples.

Results

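Transcripts of 8 genes of the AP-1 transcription factor family were followed in T helper cells treated with inhibitors of CK2, a serine/threonine kinase that is active without a stimulus and has many substrates. The genes were the FOS members Fos, Fosb, Fosl1 and Fosl2, the JUN members Jun, Junb and Jund, and the BATF member Batf3, chosen by symbol from 37583 features. Naive CD4+ T cells from the spleen of C57BL/6 mice were activated on plates coated with antibodies to CD3 and CD28. All 4 cultures received 10 ng/ml IL-1β, 10 ng/ml IL-6 and 20 ng/ml IL-23 and blocking antibodies to IL-4 and IFN-γ, a condition named aTh17. One culture received 1.5 µM DMAT and another 1 µM CX4945, both CK2 inhibitors, for 24 h, and each had its own control without inhibitor, so each of the 4 groups was 1 library. The labels name neither a vehicle for the controls nor the number of mice. The libraries held 2056635 to 2772525 exon reads, and the 8 genes took 1438 to 1806 of them. CD4+ T cell markers such as Cd3e and Cd4 were high in every library, with a sum over 8 genes of 2598 to 2745 CPM (a gene's exon reads scaled to a common library size, with TMM factors), while the 3 NK cell, 5 erythroid and 4 granulocyte markers were all at 0. Marker sums were low but above 0 for CD8+ T cells (2.36 to 4.91 CPM), macrophages and monocytes (2.19 to 4.42) and B cells (0.438 to 1.44).

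AP-1 is a pair of basic leucine zipper (bZIP) proteins. JUN proteins pair with each other or with FOS proteins, whereas FOS proteins need a partner, and the pair binds the DNA element TGACTCA or the related TGACGTCA. In T cells, engagement of the antigen receptor and CD28 induces FOS and JUN genes through MAP kinases. In Th17 cells BATF pairs with JUN proteins, JUNB among them, and binds with IRF4 at Th17 genes.

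Fos and Jun are textbook genes of fast induction, with regulatory elements close to the transcription start, and Junb was the highest of the 8 genes here. For that reason the 250 bases before the start of these 3 genes are shown, 5′ to 3′ in the direction of the gene, from the RefSeq table of build GRCm38.p6 (the count files use mm9). Of the 8 genes 7 had a promoter in that table. Capitals mark matches, on either strand, to TGACTCA, TGACGTCA, TGACATCA (a variant known from the Jun promoter), TGACGT (contained in TGACGTCA), TATAAA or the CArG box, the element bound by SRF.
Fos (chr12:85473640-85473889, plus strand): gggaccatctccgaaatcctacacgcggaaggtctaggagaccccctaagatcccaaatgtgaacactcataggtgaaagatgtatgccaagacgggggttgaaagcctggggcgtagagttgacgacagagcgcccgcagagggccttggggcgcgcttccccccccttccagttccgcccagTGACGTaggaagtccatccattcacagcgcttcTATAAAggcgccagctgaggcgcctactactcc
Jun (chr4:95052223-95052472, minus strand): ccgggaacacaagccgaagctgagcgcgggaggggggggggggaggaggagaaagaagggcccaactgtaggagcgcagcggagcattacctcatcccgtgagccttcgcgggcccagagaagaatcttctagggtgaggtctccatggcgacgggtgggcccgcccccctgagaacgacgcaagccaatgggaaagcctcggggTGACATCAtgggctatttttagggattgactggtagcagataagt
Junb (chr8:84978749-84978998, minus strand): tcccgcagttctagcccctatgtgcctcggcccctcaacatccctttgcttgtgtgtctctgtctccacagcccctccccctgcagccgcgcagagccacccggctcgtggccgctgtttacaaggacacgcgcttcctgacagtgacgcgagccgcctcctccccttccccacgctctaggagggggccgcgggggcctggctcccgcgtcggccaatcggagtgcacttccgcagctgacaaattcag
Fos had TGACGT from 66 to 61 bases before its start and TATAAA from 33 to 28 bases before it. Jun had TGACATCA from 45 to 38 bases before its start, and Junb had none of the 6 motifs in this window. Among 32851 promoter windows of this length TGACGT occurred in 6.47%, TATAAA in 12.4%, TGACATCA in 2.93%, TGACTCA in 4.46%, TGACGTCA in 1.55% and the CArG box in 1.47%. A match is a description of the sequence and not a measured binding site. Only these 250 bases were searched, so a motif farther upstream, the CArG box included, would not be seen here.

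Junb was by far the most abundant of these 8 transcripts, and its level hardly differed between libraries. Other bZIP genes that pair with JUN proteins, Batf among them, were not ranked. Divided by exon length, Junb had a level of 215 to 233 CPM per kilobase over the 4 libraries. Jund followed with 34.8 to 57.9, Fosl2 with 12.7 to 16.98, Fosl1 with 4.14 to 14.9, Jun with 4.80 to 8.47 and Fos with 3.67 to 5.01 CPM per kilobase. The ranges of Junb and Jund overlapped with those of no other gene, whereas Fosl2 and Fosl1, Fosl1 and Jun, and Jun and Fos overlapped as neighbours in this order. Fosl1 and Fos overlapped as well, so the order of Fosl1, Jun and Fos was not settled. Fosb and Batf3 stayed at or below 1.23 CPM per kilobase and could not be ordered. In bulk RNA a lower level in all cells and fewer expressing cells cannot be told apart.

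**Figure D1:**
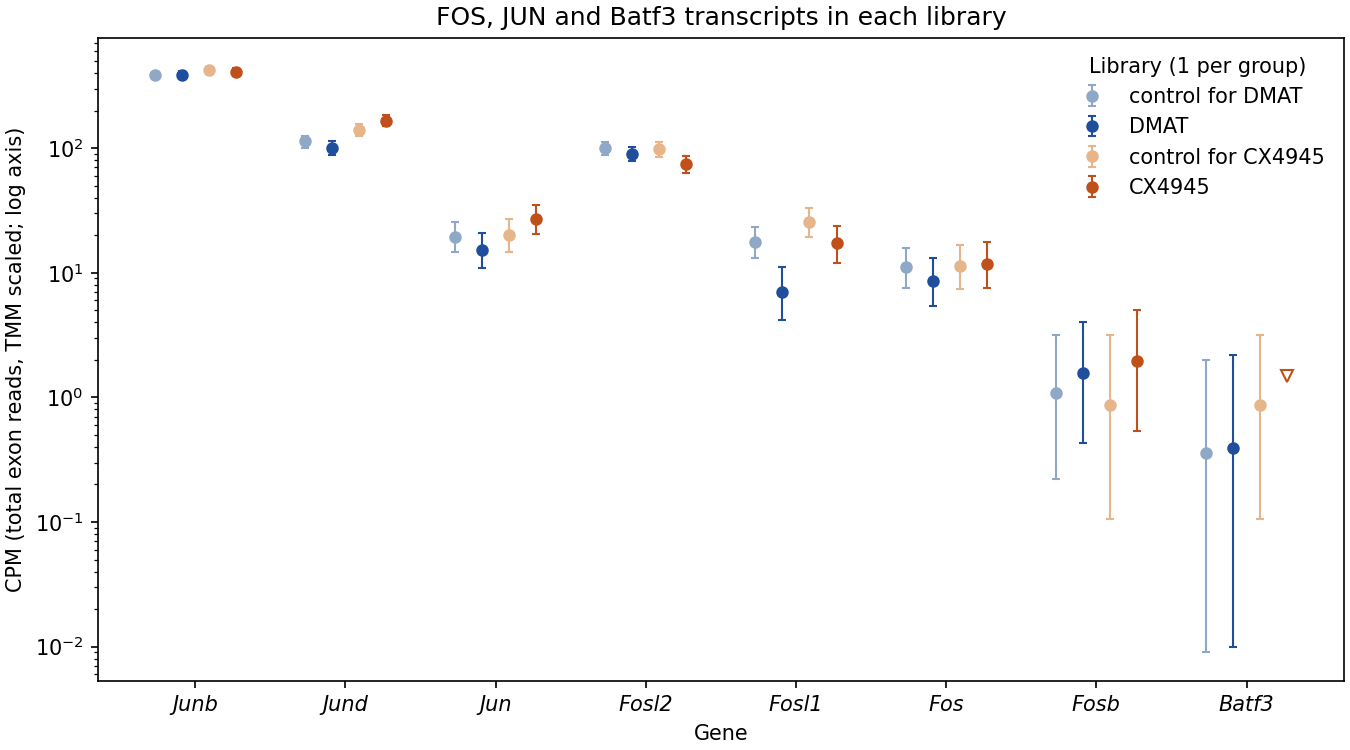
CPM (total exon reads, log axis) of the 8 genes in each of the 4 libraries, 1 library per group; bars are exact 95% Poisson intervals for counting error alone, and the open triangle is the floor of 3 reads, 1.47 CPM, for Batf3 with CX4945, which had 0 reads. Junb lies between 388 and 421 CPM in all libraries, while Fosb and Batf3 lie below 2 CPM.

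Among the JUN genes, Junb, which encodes the JUN partner of BATF at Th17 genes, had 1078 reads in the control for DMAT, 987 with DMAT, 961 in the control for CX4945 and 830 with CX4945. These counts correspond to 388, 388, 421 and 408 CPM, so each inhibitor library sat close to its own control. The ratio was 0.998 with DMAT (95% counting interval 0.915 to 1.09) and 0.969 with CX4945 (0.882 to 1.06), and both intervals include 1. Junb has 1 exon in the files (mm9 chromosome 8, 87500811 to 87502617), and all its reads were unique.

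Jund, which encodes a JUN protein that in mouse fibroblasts restrains proliferation, was higher in both libraries of the CX4945 experiment than in both of the DMAT experiment. It had 314 reads in the control for DMAT, 255 with DMAT, 319 in the control for CX4945 and 339 with CX4945, or 113, 100.1, 140 and 167 CPM. The CX4945 library was the highest of the 4 and the DMAT library the lowest. With CX4945 the ratio was 1.19 (1.02 to 1.39) and with DMAT 0.886 (0.748 to 1.05). The control for CX4945 was itself 1.23 times that for DMAT (1.05 to 1.45). Of the Jund reads 66.5% were unique, and with unique reads alone the CX4945 ratio was 1.19 with an interval of 0.980 to 1.44, which includes 1.

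Jun, the founding JUN gene and a target of its own protein, was low, with 54 reads in the control for DMAT, 39 with DMAT, 46 in the control for CX4945 and 55 with CX4945. Its values pointed in opposite directions with the 2 inhibitors, 0.788 with DMAT (0.508 to 1.21) and 1.34 with CX4945 (0.890 to 2.03), and both intervals included 1. Of its reads 75.8% were unique, and with these the ratios were 0.639 (0.382 to 1.05) and 1.19 (0.731 to 1.92). The locus BC042782 overlaps Jun by 689 bases, but it held at most 1 read in a library.

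Among the FOS genes, Fosl2, which encodes FRA2, a FOS protein that limits plasticity of Th17 cells in mice, had the most reads. It had 276 reads in the control for DMAT, 230 with DMAT, 223 in the control for CX4945 and 151 with CX4945, all of them unique, or 99.4, 90.3, 97.6 and 74.2 CPM. The controls were alike (ratio 0.982, 0.819 to 1.18) and the CX4945 library was the lowest. The ratio was 0.760 with CX4945 (0.614 to 0.938) and 0.909 with DMAT (0.760 to 1.09). Intron reads of Fosl2 numbered 31, 19, 21 and 16 in the same order of libraries. They gave ratios of 0.668 with DMAT (0.357 to 1.22) and 0.855 with CX4945 (0.417 to 1.72), too few to tell from 1.

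Fosl1, which encodes FRA1, a FOS protein induced later than FOS in stimulated cells, had the lowest ratio of the 6 genes with each inhibitor in total exon reads, whereas with unique reads and DMAT Jun was lower (log2 ratio -0.61 against -0.47). It had 49 reads in the control for DMAT, 18 with DMAT, 58 in the control for CX4945 and 35 with CX4945. Each inhibitor library lay below its own control, but the CX4945 library, at 17.2 CPM, was level with the control for DMAT at 17.6 CPM. Its ratio was 0.401 with DMAT, lower by a factor of 2.50 (95% counting interval 1.43 to 4.55), and 0.677 with CX4945 with an interval from 0.432 to 1.05 that includes 1. It was the one gene of 6 to pass the 2-fold mark with DMAT, a mark that 2.36% of 9649 genes passed, 1.27% lower and 1.09% higher. With CX4945 0 of 6 passed it, against 1.81% of 9358 genes, 0.919% lower and 0.887% higher. Between the controls 0 of 6 passed it, against 2.26% of 9564 genes, 1.28% lower and 0.983% higher in the control for CX4945.

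With DMAT the difference in Fosl1 lay mostly in reads that were not unique, and with CX4945 it was alike in both classes. Unique exon reads numbered 16 in the control for DMAT, 10 with DMAT, 23 in the control for CX4945 and 14 with CX4945, and the other exon reads 33, 8, 35 and 21. The ratio with DMAT was 0.682 for unique reads (0.276 to 1.60) and 0.264 for the others (0.105 to 0.584), while with CX4945 it was 0.683 for unique reads (0.325 to 1.39) and 0.673 for the others (0.372 to 1.19). Intron reads of Fosl1, at 39, 27, 23 and 24, gave ratios of 0.755 with DMAT (0.444 to 1.27) and 1.17 with CX4945 (0.633 to 2.17). In mm9 Fosl1 (chromosome 19, 5447703 to 5455945) shares 2783 bases with Ccdc85b (5453163 to 5457549), whose exon reads numbered 61, 61, 48 and 45. The read strand is unknown here, so reads in the shared stretch cannot be assigned to one gene.

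**Figure D2:**
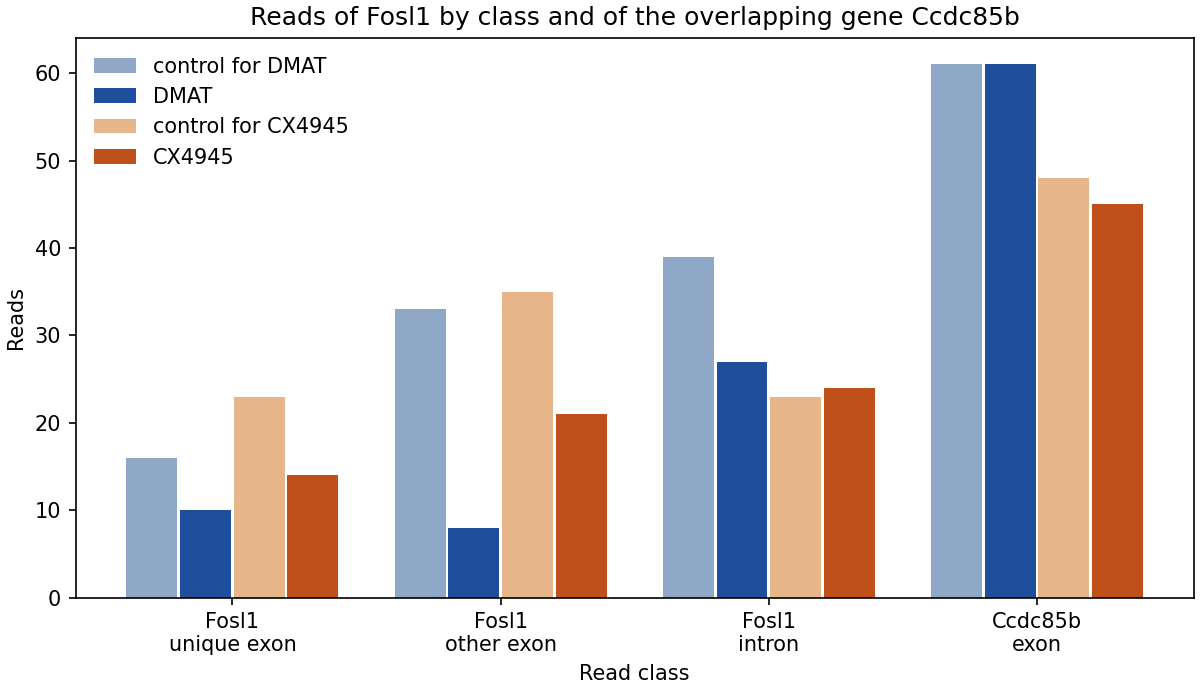
Reads of Fosl1 in each library, split into unique exon, other exon and intron reads, beside the exon reads of the overlapping gene Ccdc85b (reads, not scaled to library size). The widest gap between DMAT and its control is in the other exon reads of Fosl1, from 33 to 8, while Ccdc85b stays at 61.

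Like Fosl1, 1 gene of the stromal marker list, Lum, was lower in each inhibitor library than in its control. Between the controls, and between the inhibitor libraries, Lum went the other way from Fosl1. The sum over 5 stromal genes was 14.4 CPM in the control for DMAT, 2.75 with DMAT, 6.13 in the control for CX4945 and 0.491 with CX4945. Nearly all of it was Lum, with 39, 6, 14 and 1 reads, while Col1a1 had 1, 1, 0 and 0, and Col1a2, Dcn and Pdgfrb were at 0. With the other markers at or near 0, Lum alone cannot show whether stromal RNA was present, and a part of it in the Fosl1 values was not tested.

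Fos, the classic immediate early gene, had 31 reads in the control for DMAT, 22 with DMAT, 26 in the control for CX4945 and 24 with CX4945, all in a narrow band from 8.64 to 11.8 CPM. The ratios were 0.774 with DMAT (0.427 to 1.38) and 1.04 with CX4945 (0.569 to 1.88). Its exon-exon reads, which cross a splice junction, numbered 6, 0, 2 and 1. Fosb had 3, 4, 2 and 4 reads in the same order, all close to the floor of 3 reads that a count of 0 still allows. Batf3, a bZIP factor best known for cross-presenting dendritic cells, had 1, 1, 2 and 0 reads, and 0 reads with CX4945 allow up to 1.47 CPM at the floor. Differences in Fosb and Batf3 were not detectable at this depth, and no ratio is given. Of 6 dendritic cell markers Itgax, Clec9a and Siglech were at 0, and the sum of the list was at most 1.47 CPM in a library.

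**Figure D3:**
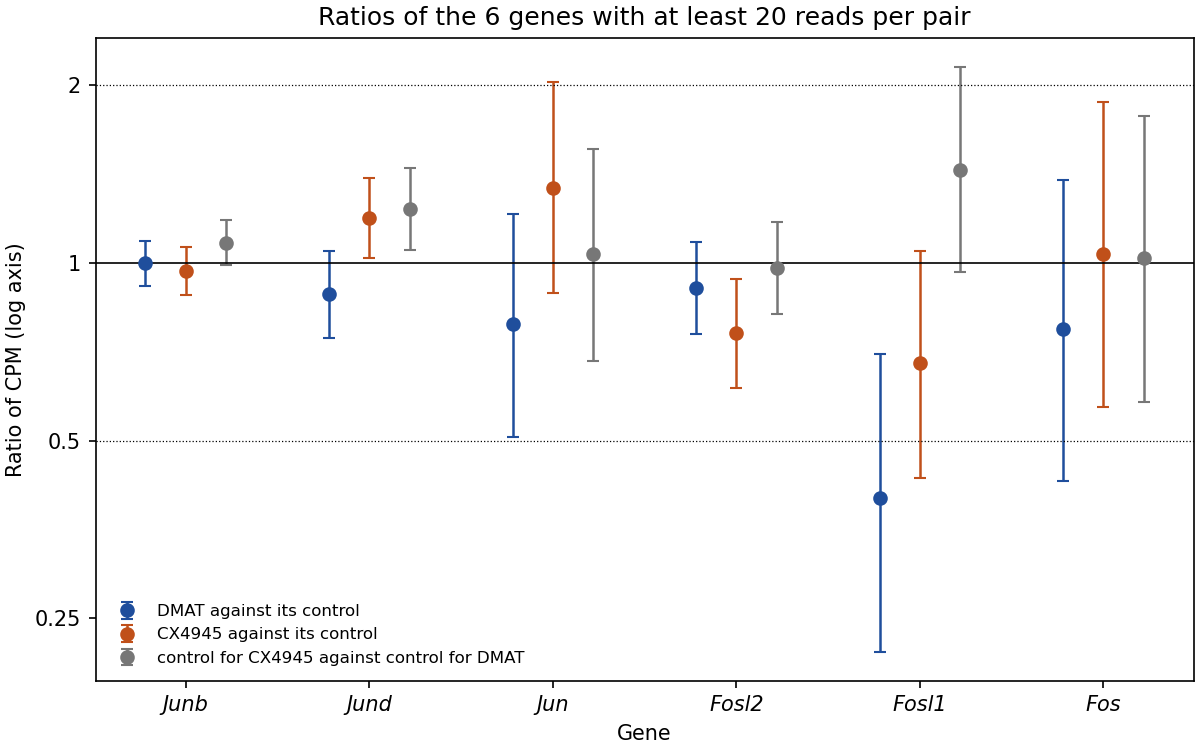
Ratio of CPM (log axis) for the 6 genes with at least 20 reads in each pair: DMAT and CX4945, each against its own control, and one control against the other. Bars are exact 95% counting intervals, and dotted lines mark 2-fold. Fosl1 with DMAT lies below the lower line at 0.401, and the intervals of Junb are the narrowest.

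Fitted over both experiments, 0 of the 6 genes passed the test (edgeR quasi-likelihood with the experiment as a block, Benjamini-Hochberg adjustment over 9629 genes), where 0.177% of all genes rose and 0.384% fell. The count was 0 with DESeq2 too, and at an unadjusted p under 0.05 it was 1 of 6, where 7.23% of all genes (696 of 9629) reached that p. With unique reads, or without the block, it was 0. The gene was Fosl1, with a joint log2 fold change of -0.89 ± 0.31 (SE; edgeR adjusted p = 0.357). With unique reads its log2 fold change was -0.55 ± 0.44 (edgeR adjusted p = 0.862). Fosl2 stood at -0.26 ± 0.13 (edgeR adjusted p = 0.727) and Fos at -0.16 ± 0.35 (edgeR adjusted p = 0.972). Junb stood at -0.02 ± 0.09, Jund at 0.05 ± 0.12 and Jun at 0.05 ± 0.28 (edgeR adjusted p = 0.982, 0.974 and 0.989). The sign for Jun turned to -0.19 with unique reads. The median log2 ratio of the 6 genes was -0.25 with DMAT, where 6 of 6 were below 0 (4743 of 9649 among all genes), and 0.00 with CX4945, where 3 were (4623 of 9358), against medians of 0.01 and 0.00 over all genes. Junb was below 0 with DMAT by less than 0.01 and above 0 by 0.01 under total-count scaling.

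By make-up, JUN genes gave 88.4% to 91.3% of the summed level per kilobase and FOS genes the remainder, apart from at most 0.378% from Batf3. Junb alone gave 73.3% in the control for DMAT, 77.1% with DMAT, 71.5% in the control for CX4945 and 70.5% with CX4945. The FOS share was 11.0% in the control for DMAT and 8.50% with DMAT, and 11.3% in the control for CX4945 and 8.83% with CX4945. With unique reads these shares were 9.36% and 8.28%, and 9.24% and 7.60%. Both inhibitor libraries had a lower FOS share than either control in both counts. Without Fosl1 this did not hold for DMAT, since the shares were 7.78% and 7.12% in the DMAT pair, and 7.00% and 5.87% in the CX4945 pair.

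The reads of the 4 FOS genes together were below the control, scaled to library size, in both inhibitor libraries, at 359 and 274 in the DMAT pair and 309 and 214 in the CX4945 pair. The ratios were 0.832 with DMAT (0.709 to 0.977) and 0.777 with CX4945 (0.650 to 0.928), while the controls differed by a ratio of 1.05 (0.896 to 1.22). With unique reads the DMAT ratio was 0.889 and its interval, 0.753 to 1.05, included 1, as it did without Fosl1 (0.901, 0.760 to 1.07). The CX4945 ratio was 0.791 with unique reads (0.655 to 0.954) and 0.800 without Fosl1 (0.657 to 0.973). For the 3 JUN genes the ratios were 0.966 with DMAT (0.895 to 1.04) and 1.04 with CX4945 (0.958 to 1.12), against 1.11 between the controls, an interval above 1. With 1 library in each arm these sums carry no p-value. Most of the FOS reads were Fosl2, at 276 and 230 in the DMAT pair and 223 and 151 in the CX4945 pair. No sum was made without Fosl2. In the CX4945 pair Fosl1 was lower too (58 and 35 reads). Scaled to library size, Fos (26 and 24 reads) had a ratio of 1.04, with a wide interval of 0.569 to 1.88. Fosb (2 and 4 reads) had too few reads to give a direction.

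**Figure D4:**
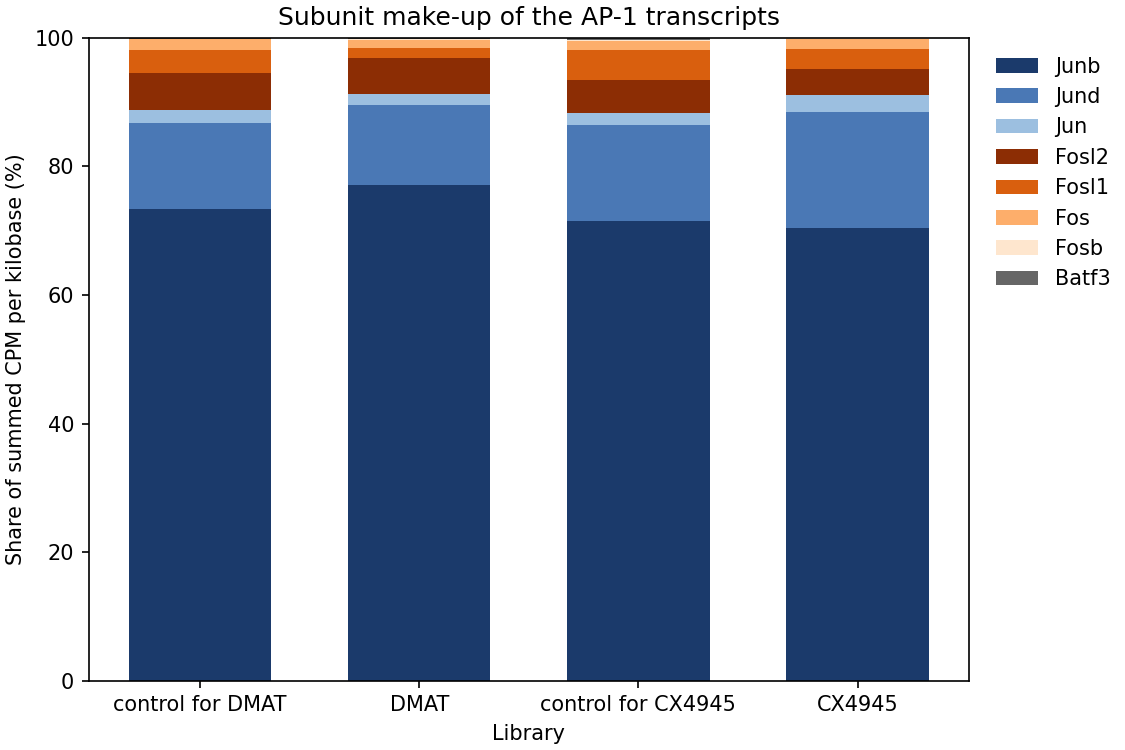
Share (%) of each gene in the CPM per kilobase summed over the 8 genes, by library; blue is JUN, orange FOS and grey Batf3. Junb fills 70.5% to 77.1% of each bar, and the orange part is 8.50% and 8.83% with the inhibitors against 11.0% and 11.3% in the controls.

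Genes of the surrounding pathway were taken from fixed lists, beginning with the proteins that pair with AP-1 subunits. Of 12 bZIP partners and relatives tested in the joint fit 0 passed, with 3 at an unadjusted p under 0.05 (7.23% among all genes), and the median log2 fold change was -0.03. Batf, the main BATF gene in these cells, had 622 reads in the control for DMAT, 473 with DMAT, 511 in the control for CX4945 and 369 with CX4945. Its ratios were 0.829 (0.734 to 0.936) and 0.810 (0.707 to 0.928) with controls alike (0.999, 0.887 to 1.12), but it did not pass (edgeR adjusted p = 0.357). The ends of that list were Maf, a Th17 and Tfh factor, at 0.33 and Nfe2l1 at -0.29. Of the 5 IRF and NFAT genes tested 0 passed, with 1 at an unadjusted p under 0.05, the p that 7.23% of all genes reached. Nfatc1 was the highest at 0.31 and Nfat5 the lowest at 0.02, and Irf4, the partner of BATF and JUN, had 2646 reads in the control for DMAT, 2777 with DMAT, 1765 in the control for CX4945 and 1580 with CX4945 and stood at 0.10 (edgeR adjusted p = 0.887).

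Upstream, 0 of 24 tested genes of the MAP kinase cascade and the ternary complex passed, with a median log2 fold change of 0.03 and 2 at an unadjusted p under 0.05, a share near the 7.23% of all genes. The lowest was Srf, which encodes the factor that binds the CArG box of immediate early genes. Srf had 123 reads in the control for DMAT, 78 with DMAT, 130 in the control for CX4945 and 57 with CX4945, so both inhibitor libraries lay below both controls. Its ratio was 0.692 with DMAT (0.514 to 0.926) and 0.492 with CX4945 (0.354 to 0.677), the latter at least 2-fold lower, and its joint log2 fold change was -0.77 ± 0.19 (edgeR adjusted p = 0.0846). The call depended on scaling, with an adjusted p of 0.0476 under DESeq2 size factors in edgeR and 0.0307 under total-count scaling. Only 26.3% of Srf reads were unique, and with those the adjusted p was 0.552 at -0.73 ± 0.35. The highest of the list was Elk3, a ternary complex factor, at 0.43 (edgeR adjusted p = 0.882). Of 10 genes that act on FOS and JUN proteins, such as the ubiquitin ligases Itch and Fbxw7, 0 passed and 0 had an unadjusted p under 0.05. Their ends were Rfwd2, which encodes the ligase COP1, at 0.34 with 27.3% of reads unique, and Fbxw7 at -0.18.

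Downstream, 1 of 20 tested T cell genes known as AP-1 targets fell and 0 rose, against 54 genes or 0.561% among all, and 9 had an unadjusted p under 0.05, against 7.23% of all genes. The gene that fell was Timp1, a metalloproteinase inhibitor, at -2.17 ± 0.43 (edgeR adjusted p = 0.0186), with 106 and 5 reads in the DMAT pair, 56 and 27 in the CX4945 pair, and 35.1% of reads unique. Without the block, and with DESeq2, 0 targets passed. Cd44, an adhesion receptor of activated T cells, stood at -0.67 ± 0.16 (edgeR adjusted p = 0.0694). It passed under DESeq2 size factors in edgeR (adjusted p = 0.0374), total-count scaling (0.0252) and with unique reads (0.00787). With unique reads Ccnd2 and Cd69 passed too, upward. At least 2-fold lower with DMAT were Timp1, the metallothionein gene Mt2 (22 and 6 reads) and Lgals3 (19 and 6), and with CX4945 the haem oxygenase gene Hmox1 (23 and 9) and S100a6 (48 and 20). Lgals3, which encodes galectin-3, was 2.45 times its control with CX4945 (11 and 24 reads). Of 20 targets 3 were thus lower and 0 higher with DMAT, where 1.27% and 1.09% of all genes were. With CX4945 2 of 20 were lower and 1 higher, against 0.919% and 0.887%. Dusp5, a MAP kinase phosphatase gene, was the highest of the list at 0.48 (edgeR adjusted p = 0.699). The median of the list was -0.33 with DMAT and -0.01 with CX4945. Most of the genes at an unadjusted p under 0.05 in the joint fit were lower. The lower ones were Timp1, Cd44, Mt2 (-1.14), S100a6 (-1.03), Ahnak (-0.58), Il2 (-0.25) and Il2ra (-0.21). Only Cd69, at 0.36, and Ccnd2, at 0.31, were higher. This list too was chosen with earlier results of these data known, so its counts are no independent evidence.

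Of 10 tested Th17 genes listed as bound with BATF and JUNB, 5 fell and 0 rose, where 0.384% of all genes fell and 0.177% rose, and 6 had an unadjusted p under 0.05, against 7.23% of all genes. The 5 that fell were Il17f, Il17a, Il22, Il23r and Il1r1, whose joint log2 fold changes lay between -3.25 and -1.14. Il17a, at the -3.25 end, had few reads, 22 and 3 in the DMAT pair and 22 and 1 in the CX4945 pair. Il22 had 62 and 0, and 78 and 22, with 45.7% of reads unique. Il17f, the gene of a signature Th17 cytokine, had 1048 and 131 reads in the DMAT pair and 600 and 134 in the CX4945 pair. The 5 genes were at least 2-fold lower in both pairs, and Ccr6, with 19 and 5 reads in the DMAT pair, was lower there too. That made 6 of 11 genes lower with DMAT, against 1.27% of all genes, and 5 of 10 with CX4945, against 0.919%, with 0 higher in either. Without the block the count was 1, Il17f, and with DESeq2 it was 1. Ahr was the highest of the list at 0.44 (edgeR adjusted p = 0.826). This list was chosen with these falls known, so its count is no independent evidence. In the same libraries Junb stayed within 388 to 421 CPM. Batf was below its control with DMAT (ratio 0.829) and CX4945 (0.810), with both intervals below 1, but it did not pass the joint fit. The JUNB and BATF proteins and their binding were not measured, and a link of either gene to these falls was not tested.

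Of 10 EGR and NR4A immediate early genes tested 0 passed, with a median of 0.04 and 3 at an unadjusted p under 0.05, against 7.23% of all genes. Nr4a3 was the highest at 0.50 and Ier3, with 19 and 7 reads in the DMAT pair, the lowest at -0.75 (edgeR adjusted p = 0.442 and 0.839). Between the controls the list differed by a median log2 ratio of 0.38, higher in the control for CX4945, while the median of the 6 FOS and JUN genes was 0.08. Of these 6 genes 1 was lower in the control for CX4945, and the highest there were Fosl1 at 0.50 and Jund at 0.30.

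**Figure D5:**
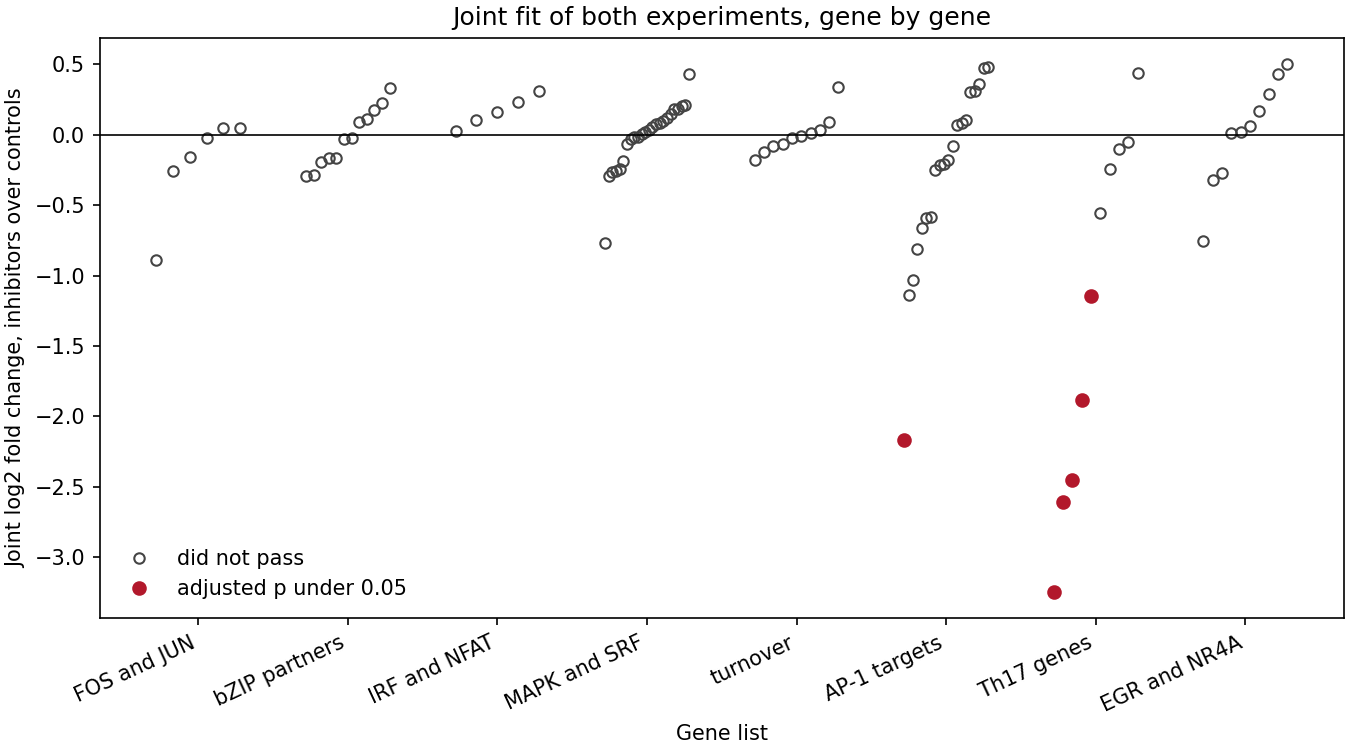
Joint log2 fold change (both inhibitor libraries over both controls) of each tested gene, by list; filled points passed the edgeR test at an adjusted p under 0.05 and open points did not. The 6 FOS and JUN genes are open, from -0.89 (Fosl1) to 0.05, and 5 filled points lie in the Th17 list.

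Profiles over the 4 libraries were compared for the 3 AP-1 genes with at least 200 reads, as the distance between log2 CPM values centred on each gene's mean, among 6968 other genes. Nearest to Junb were Rbbp7, Slc29a2 and Polr3g, at distances of 0.0144, 0.0162 and 0.0190 where the median distance was 0.281. Fosl2 was nearest to Taf1, Gpr89 and Rb1cc1 (0.00862, 0.0311 and 0.0313, median 0.419). Jund was nearest to Vasp, Rasal3 and Fam65b (0.0291, 0.0319 and 0.0410, median 0.600). With 4 libraries such closeness is a description alone.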

How the data were processed

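RNA sequencing of 4 cultures was analysed. Per the file headers, the deposited values were whole-number counts of reads per feature, made by the authors with no normalization. Total exon reads, which include reads that fit several places, were the main measure, and unique, intron and exon-exon reads and exon length came from the same tables. CASAVA 1.8.2 and mm9 are named in the submitters' processing notes, and the libraries were TruSeq RNA, per the labels' protocols. For the aligner, annotation, counting rule and strand: not given in the sources used here. The 9551 features without exon length were left out.

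TMM factors of 0.990 to 1.01 set the library sizes (R 4.3.3 with edgeR 4.0.16). Each inhibitor library was set against the control its title names, as a log2 ratio of CPM with a prior count of 2. A gene with at least 20 reads in the pair was called at 2-fold or more. Ratios without the prior carry exact conditional 95% intervals, which cover counting error only, as does the floor of 3 reads. With 1 library per arm there is no replicate check. Both experiments were then fitted together by edgeR's quasi-likelihood test with the pair as a block (1 residual degree of freedom), over genes that passed filterByExpr. This test measures agreement between 2 inhibitors in 4 libraries, whose spread may be technical. The SE is the log2 fold change divided by the square root of F. Titles give the pairing. Across 6969 genes, which are not independent replicates, Pearson's r was 0.425 between the 2 experiments' difference in the controls and in the inhibitor libraries. No library was a duplicate (chi-square per degree of freedom 2.56 to 5.63).

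Members and lists were chosen with earlier results of these data known. Named genes were all members, list genes that passed or reached 2-fold, the ends of each list, and the nearest profiles. Batf, Irf4, Cd44, Ccnd2, Cd69, Ahnak, Il2, Il2ra and Crem were named after their values were seen. Of the 8 members 6 entered each test. Fosb and Batf3 had too few reads. Alternatives were other scalings, unique reads, filters, priors and controls, no block, DESeq2 1.42.0 and leaving out each library.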

Additional observations from a re-analysis of the deposited data

How the results depend on the processing

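No FOS or JUN gene passed the joint test under any alternative run. The 2-fold call of Fosl1 with DMAT was kept under 6 alternatives and lost with unique reads (0 of 6 genes called). Scaling by DESeq2 size factors, by total counts, and counting unique reads took the joint count over all genes from 54 to 84, 101 and 108. The fit with no replicate block gave 1 and DESeq2 with the block 3, and the cause was not tested. Under the scalings 1 MAP kinase list gene, Srf, passed in each, and 2 AP-1 targets, while 4 targets passed with unique reads. With no replicate block or DESeq2 0 targets and 1 Th17 gene passed. Fits that left out each library, without the block, rest on a lone sample assumed to vary like the others. They gave 0 to 2 targets, 1 to 4 Th17 genes and 0 to 3 EGR and NR4A genes, and joint log2 fold changes of -0.387 to 0.0659 (Fos), -0.374 to 0.450 (Jun), -0.0842 to 0.0318 (Junb, 0.0134 without DMAT), -0.337 to 0.404 (Jund, -0.0756 without the control for DMAT), -0.409 to -0.132 (Fosl2) and -1.59 to -0.309 (Fosl1, without CX4945 and without DMAT). With unique reads Jun stood at -0.190. Asking for 50 reads took the 2-fold genes, fewer being tested, to 92 with DMAT and 64 with CX4945, the targets to 1 in each and the EGR and NR4A genes with DMAT to 0. With CX4945, unique reads gave 108 genes, the other inhibitor's control 364, and DESeq2 size factors 0 MAP kinase genes. FOS shares with unique reads were 9.36%, 9.24% and 7.60% in the control for DMAT, the control for CX4945 and CX4945, and without Fosl1 7.78%, 7.12%, 7.00% and 5.87% in the control for DMAT, DMAT, the control for CX4945 and CX4945. The unique-read FOS ratios, and FOS ratios and shares without Fosl1, were chosen after seeing the data. Depth limits Fos, Jun and Fosl1 to intervals of 2-fold or wider.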

Other observations

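Crem, a bZIP gene of the CREB family on the list of partners, was chosen after its values were seen. It had 68 reads in the control for DMAT, 114 with DMAT, 64 in the control for CX4945 and 32 with CX4945. Its ratio was 1.83 with DMAT (95% counting interval 1.34 to 2.51) and 0.561 with CX4945 (0.355 to 0.871), and 1.14 between the controls (0.800 to 1.63). The intervals lay on opposite sides of 1, a difference that was not tested, and the inhibitors differ in dose and experiment as well as in compound. In the joint fit it stood at 0.17 (edgeR adjusted p = 0.954).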
